A study of Mus musculus with 12 samples.

Results

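The genes described here are 10 hormones, granins and serotonin-synthesis genes of enteroendocrine cells: Chga, Chgb, Tph1, Cck, Gip, Sct, Sst, Gcg, Nts and Pyy. They were chosen by symbol, and all 10 were among the 15855 genes of the count table and among the 14462 that passed a filter on low counts. RNA was sequenced from sorted epithelial cells of the whole small intestine of C57BL6/J mice, which the study's methods give as males of 8 to 12 weeks. One group of 5 mice had permanent occlusion of the middle cerebral artery (pMCAO), a stroke model in which a filament blocks a main artery of the brain and is left in place, and the other group of 7 had sham surgery. Both groups were killed 24 h after surgery, all mice carried the same strain background with no allele named, and each library was labelled as a biological replicate. The tissue was opened and its epithelium released with EDTA before sorting, so hormone-producing cells were measured as part of the whole epithelium and not on their own.

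Enteroendocrine cells are scattered single cells of the gut epithelium that sense nutrients and microbial products and release peptide hormones or serotonin from dense-core granules. Different subtypes along the villus and along the gut make different hormones, so that K cells make GIP, I cells CCK, D cells somatostatin, S cells secretin, and L and N cells of the distal gut the proglucagon peptides, PYY and neurotensin. Granins are acidic granule proteins found in most of these subtypes and are commonly used as markers of endocrine cells. In RNA from a mixed epithelium, fewer enteroendocrine cells and less hormone RNA per cell cannot be told apart.

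The 12 libraries carried numbers in their titles and were treated as 4 library sets. Libraries 58 to 61 held pMCAO replicate 1 and sham replicates 1 to 3. Libraries 62 to 65 held pMCAO replicates 2 and 3 and sham replicates 4 and 5, libraries 66 to 68 held pMCAO replicates 4 and 5 and sham replicate 6, and library 72 was sham replicate 7 alone. The labels do not say what the sets are, and whether they differ in day, dissection or RNA handling was not tested. Total counts ranged from 7418730 to 31925579 per library and did not separate the groups (exact two-sided permutation test, p = 0.0934). Libraries 58 to 61 had 13386 to 14712 genes with a count against 15343 to 15766 in the later ones, and 34.8% to 54.5% of their counts fell on mitochondrial ribosomal RNA against 14.6% to 35.2%. Levels below are CPM, counts scaled to library size and corrected by TMM factors, and a floor of 3 counts was worth 0.0692 to 0.724 CPM depending on the library.

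The members lie on separate stretches of the genome, and in the GENCODE vM21 annotation of GRCm38 no exon of any of them overlaps an exon of another gene on either strand. Chga lies at chr12:102554969-102565028 and Chgb at chr2:132781278-132795079, both on the plus strand, and Sst at chr16:23889573-23890958 and Nts at chr10:102481756-102490486, both on the minus strand. The 250 bases upstream of the RefSeq start (GRCm38.p6) are given for these genes because the results below turn on them. Chga was the reference for ratios, and Chgb is the other granin among the members. Sst was lower relative to Chga in libraries 58 to 61, and the group difference of Nts depended on the library set. Capitals mark TGACGTNA, the letters of a cyclic AMP response element with a free seventh position, read on both strands. That pattern was chosen after these windows had been read and includes every TGACGTCA.
Chga, chr12:102554691-102554940, plus strand: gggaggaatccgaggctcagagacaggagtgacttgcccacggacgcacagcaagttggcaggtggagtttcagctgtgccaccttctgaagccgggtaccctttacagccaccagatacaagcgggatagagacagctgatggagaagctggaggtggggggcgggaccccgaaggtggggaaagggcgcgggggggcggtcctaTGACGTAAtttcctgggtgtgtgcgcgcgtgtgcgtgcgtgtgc
Chgb, chr2:132781392-132781641, plus strand: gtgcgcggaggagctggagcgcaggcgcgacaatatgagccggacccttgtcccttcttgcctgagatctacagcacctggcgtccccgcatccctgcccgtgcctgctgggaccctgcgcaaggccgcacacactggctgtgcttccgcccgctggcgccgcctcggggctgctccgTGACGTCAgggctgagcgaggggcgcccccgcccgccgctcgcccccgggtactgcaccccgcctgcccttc
Sst, chr16:23890845-23891094, minus strand: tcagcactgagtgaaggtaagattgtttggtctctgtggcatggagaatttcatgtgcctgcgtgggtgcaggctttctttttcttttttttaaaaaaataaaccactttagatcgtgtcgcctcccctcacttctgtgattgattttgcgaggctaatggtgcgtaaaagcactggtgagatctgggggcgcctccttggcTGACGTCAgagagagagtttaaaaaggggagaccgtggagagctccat
Nts, chr10:102490419-102490668, minus strand: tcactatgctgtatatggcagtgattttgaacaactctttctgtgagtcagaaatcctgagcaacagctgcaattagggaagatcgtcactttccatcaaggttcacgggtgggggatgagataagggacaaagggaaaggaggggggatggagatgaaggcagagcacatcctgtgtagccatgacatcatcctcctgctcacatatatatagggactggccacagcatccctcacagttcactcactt
The element began 44 bases upstream of the RefSeq start in Chga, 72 in Chgb and 48 in Sst, and the Nts window held no match. The RefSeq starts differ from the ends of the GENCODE spans given above. The Chgb window therefore lies inside its GENCODE span, and those of Sst and Nts overlap theirs. The exact letters TGACGTCA stood in the windows of Chgb and Sst and in 1.55% of the 32851 windows of the same length. TGACGTNA stood in 3 of the 12 windows of the members, which belong to 3 of the 10 genes, and in 2.52% of all windows. Because the pattern was chosen on these windows, that count is no test of the members. TATAAA stood in those of Gcg and Sct and in 12.4% of all windows.

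Levels of different genes were compared per kilobase of annotated exon, over the 8 libraries after 61. Gip, the glucose-dependent insulinotropic peptide, and Sct, secretin, were the most abundant at 763 ± 302 and 737 ± 232 CPM per kilobase (SD, n = 8). Gip exceeded Sct in 5 of 8 libraries, so their order was not fixed, whereas Sct exceeded the next gene in 8 of 8. Chgb at 327 ± 52.0, Cck at 297 ± 132 and Nts at 274 ± 198 CPM per kilobase came next and overlapped in their ranges. Sst stood at 201 ± 97.5 and exceeded Chga in 8 of 8 libraries. Chga at 81.6 ± 17.9 and Pyy at 80.3 ± 52.3 CPM per kilobase were not separated, Tph1 followed at 30.3 ± 7.49, and Gcg was lowest at 9.77 ± 4.41. The granins and Tph1 varied least between libraries, and Nts and Pyy the most.

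To ask whether stroke altered the endocrine output of the epithelium, pMCAO and sham libraries were compared with the library set as a covariate. A gene was called where its adjusted p from limma-voom was 0.05 or less and its level moved at least 2-fold, a log2 fold change of 1 either way. By this rule 0 of the 10 members changed, against 47 of 14462 genes (0.325%, of which 0.138% higher and 0.187% lower). An unadjusted p under 0.05 was reached by 0 of the 10 members and by 12.7% of all genes. The members' median log2 fold change was -0.19, beside 0.01 over all genes tested. The summed level of the 10 was 2232 ± 1768 CPM in sham (n = 7) and 2375 ± 1321 CPM in pMCAO (n = 5). After library 61 it was 3616 ± 537 CPM in sham and 2881 ± 789 CPM in pMCAO, with 4 libraries in each. In all 10 members the ranges of the groups overlapped, and 0.505% of all genes had groups that did not.

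Chga, which encodes chromogranin A, ranged in sham from 25.1 through a median of 192 to 243 CPM. The pMCAO libraries stood at 17.4, 216, 255, 142 and 313 CPM for replicates 1 to 5. Each group had its low values in libraries 58 to 61 and the rest close together, and the log2 fold change was -0.13 ± 0.22 (SE, adjusted p = 0.852, 95% interval -0.60 to 0.34). Chgb, chromogranin B, ranged in sham from 117 through 848 to 996 CPM and stood at 116, 917, 778, 639.8 and 1109 CPM in pMCAO. Its difference had the narrowest interval of the 10, from -0.52 to 0.16 on the log2 scale, with an adjusted p of 0.682 from limma. Tph1, tryptophan hydroxylase of the serotonin-making enterochromaffin cells, ranged in sham from 34 through 179 to 214 CPM, and pMCAO libraries stood at 18.5, 131, 228, 106 and 233 CPM. The ranges overlapped, with pMCAO replicate 1 below every sham library and replicates 3 and 5 above every one. Its log2 fold change was -0.36 ± 0.24 (adjusted p = 0.562 in limma-voom).

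Cck, cholecystokinin, which drives gallbladder and pancreatic secretion and satiety, ranged in sham from 4.77 through 237 to 643 CPM. The pMCAO libraries stood at 0.427, 209, 455, 159 and 405 CPM, so that replicate 1 lay far below the other 4. The log2 fold change was -0.51 ± 0.35 (adjusted p = 0.583, 95% interval -1.25 to 0.22). Gip ranged in sham from 20.8 through 224 to 745 CPM and stood at 1.54, 665, 305, 379 and 763 CPM in pMCAO. The ranges overlapped, with pMCAO replicate 1 below every sham library and replicate 5 just above the highest, and the interval of the difference ran from -0.99 to 0.75 (adjusted p = 0.939).

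Sct, secretin, which stimulates bicarbonate secretion, ranged in sham from 27 through 433 to 729 CPM and stood at 37.1, 516, 485, 181 and 467 CPM in pMCAO. Apart from replicates 1 and 4 these values sat near the sham median, and the log2 fold change was -0.19 ± 0.25 (adjusted p = 0.799). Sst, somatostatin, the paracrine inhibitor of other endocrine cells, ranged in sham from 1.83 through 85.8 to 303 CPM. Its pMCAO libraries stood at 0.0854, 166, 81.4, 114 and 134 CPM, the first of these being a single count. The log2 fold change was -0.07 ± 0.25 (adjusted p = 0.939).

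Gcg, whose precursor yields the GLP peptides of L cells, ranged in sham from 0 through 6.19 to 21 CPM and stood at 0, 20.6, 8.39, 10.48 and 23.9 CPM in pMCAO. The ranges overlapped, with pMCAO replicate 5 just above the highest sham library (log2 fold change 0.08 ± 0.35, adjusted p = 0.955 in limma-voom). Nts, neurotensin, which slows gut motility and aids fat uptake, ranged in sham from 18.4 through 323 to 836 CPM, and stood at 142, 405, 144, 70.3 and 109 CPM in pMCAO. Its log2 fold change was -0.97 ± 0.55, with an interval from -2.14 to 0.20 and an adjusted p of 0.492 in limma-voom. It was -0.42 in both edgeR and DESeq2 and 0.26 without sham replicate 6. Without libraries 58 to 61 it was -1.62 (unadjusted p = 0.00625, adjusted p = 0.420 in limma-voom). Without pMCAO replicate 1 it was -1.64 (adjusted p = 0.212 in limma-voom). After library 61 Nts was at 502 ± 228 CPM in sham and 182 ± 151 CPM in pMCAO. Cck was at -1.05 in edgeR and -1.23 in DESeq2. Pyy, peptide YY, the ileal brake hormone, ranged in sham from 3.35 through 32.2 to 87.5 CPM and stood at 19.99, 109, 15.6, 20.2 and 34.1 CPM in pMCAO. Its log2 fold change was -0.49 ± 0.53 (adjusted p = 0.754). The limma-voom intervals of Nts, Cck and Pyy included a 2-fold lower level. Those of Chga, Chgb, Tph1, Sct, Sst, Gcg and Gip lay above a log2 fold change of -1, that of Gip only just. In edgeR and DESeq2, for which no interval was computed, Sst was at -0.41 and -0.74 and Gip at -0.56 and -0.62. Both were further from 0 there than in limma-voom.

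**Figure D1:**
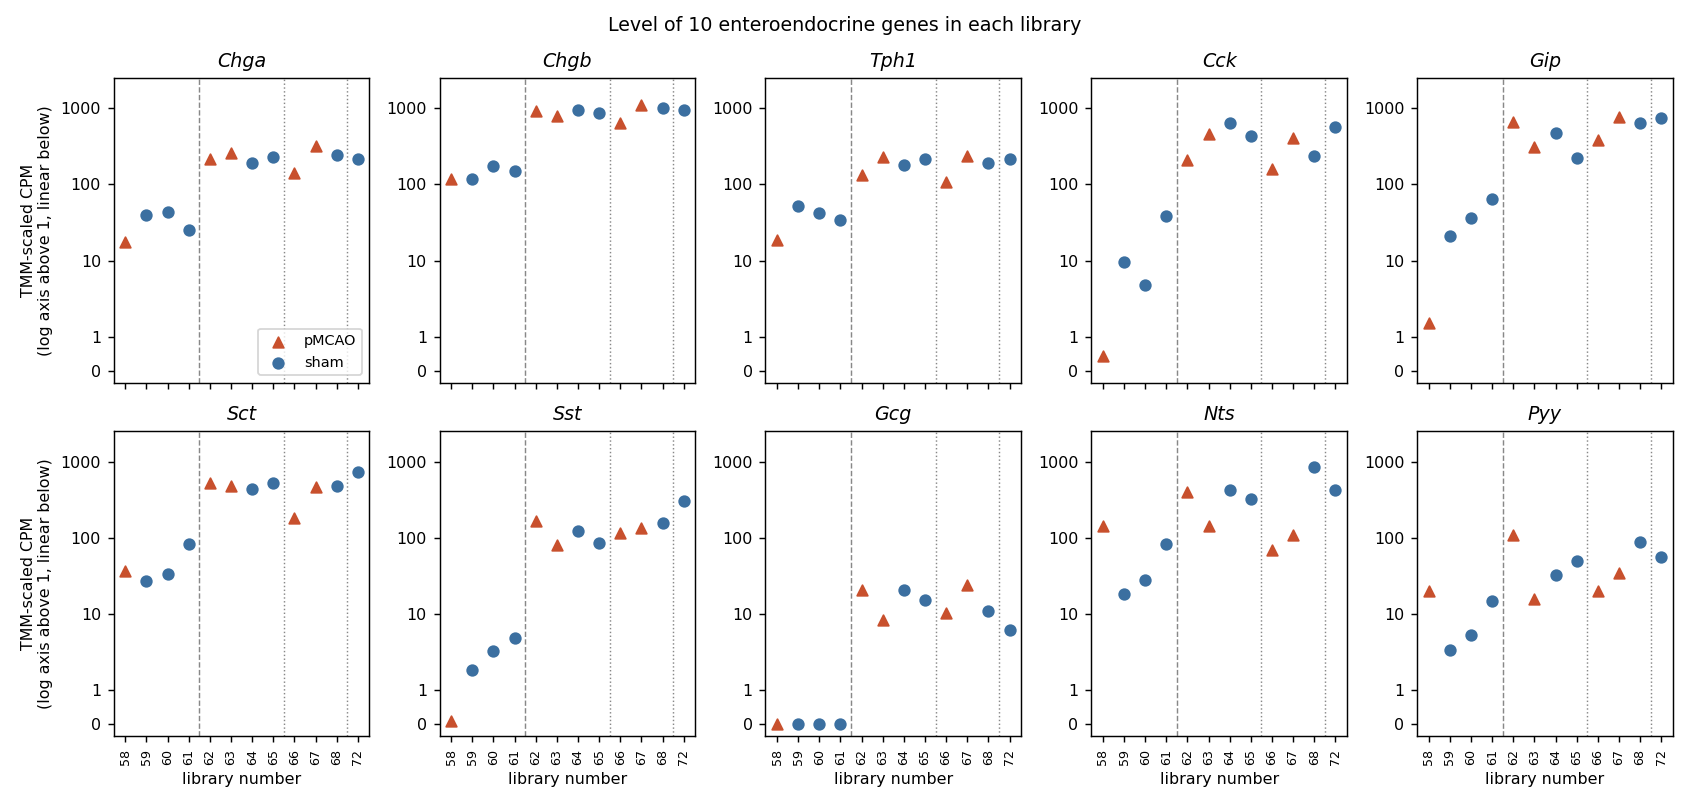
Level of each gene in each library (TMM-scaled CPM, log axis above 1 and linear below) against library number, with circles for sham, triangles for pMCAO, and vertical lines between the library sets. Chga is at 17.4 to 44.0 CPM in libraries 58 to 61 and at 142 to 313 CPM afterwards, with sham and pMCAO intermixed.

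The largest difference among the members was between library sets. With group as a covariate, 9 of the 10 were lower in libraries 58 to 61 than in the mean of sets 62 to 65 and 66 to 68, where 9.00% of all genes were called lower and 2.97% higher. The remaining gene, Pyy, was at -2.47 ± 0.90 on the log2 scale with an adjusted p of 0.0628. The members' median log2 fold change was -3.24, beside -0.15 over all genes tested. Their summed level was 378 ± 85.8 CPM (290.2 to 495, n = 4) in libraries 58 to 61 and 3248 ± 738 CPM (1821 to 4186, n = 8) afterwards.

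The granins and Tph1 were lower in each of the 4 early libraries. Chga was at 31.6 ± 12.4 CPM in libraries 58 to 61 and 225 ± 49.4 CPM in the 8 later ones, a log2 fold change of -2.96 ± 0.30 (adjusted p = 4.14e-05). Chgb was at 139.6 ± 28.6 and 897 ± 143 CPM (log2 fold change -2.77 ± 0.18, adjusted p = 6.21e-07). Tph1 was at 36.9 ± 14.4 and 187 ± 46.2 CPM (log2 fold change -2.45 ± 0.31, adjusted p = 0.000209). For all 3, every early library lay below every later one.

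Sst, Cck and Gip spread more widely. Sst was at 1.83, 3.32 and 4.83 CPM in the sham libraries and 0.0854 CPM in the pMCAO library of set 58 to 61, and at 81.4 to 303 CPM later, a log2 fold change of -6.36 ± 0.90 (adjusted p = 0.000452). Cck was at 0.427 to 38.1 CPM and then 159 to 643 CPM (log2 fold change -5.79 ± 0.83, adjusted p = 0.000485). Gip was at 1.54 to 64.4 CPM and then 224 to 763 CPM (log2 fold change -4.83 ± 0.68, adjusted p = 0.000392). These ranges did not overlap. Sct fell by 3.52 ± 0.33 on the log2 scale, from 475 ± 149.7 to 45.0 ± 25.2 CPM (adjusted p = 2.42e-05). Gcg had no count in any of the 4 early libraries and a mean of 14.6 CPM later, so that it was at least 162-fold lower against a floor of 3 counts over the 4 libraries.

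Of the hormones of the distal gut, Nts and Pyy had early values that reached into the later range, while Gcg did not. Nts was at 18.4, 27.8 and 82.3 CPM in the early sham libraries and at 142 CPM in the early pMCAO library, against 70.3 to 836 CPM later. Pyy was at 3.35, 5.39, 15.0 and 19.99 CPM in the same libraries, against 15.6 to 109 CPM later. For both genes the early and later ranges overlapped, through sham replicate 3 and pMCAO replicate 1 for Nts and through pMCAO replicate 1 for Pyy. The other 8 members had ranges that did not overlap, as did 14.9% of all genes (9.40% with all early values lower). The log2 fold change of Nts was -2.69 ± 0.69 (adjusted p = 0.0125), and its adjusted p rose to 0.0751 without sham replicate 1 and 0.0699 without sham replicate 6. Pyy passed in 6 of 19 alternatives, among them edgeR (adjusted p = 0.0153) and DESeq2 (0.0186). It also passed on leaving out pMCAO replicate 2 or 3 (0.00530 and 0.0226 in limma). Across the alternatives its adjusted p rose to as much as 0.253 in limma, and its log2 fold change shrank to -1.71 without sham replicate 6.

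**Figure D2:**
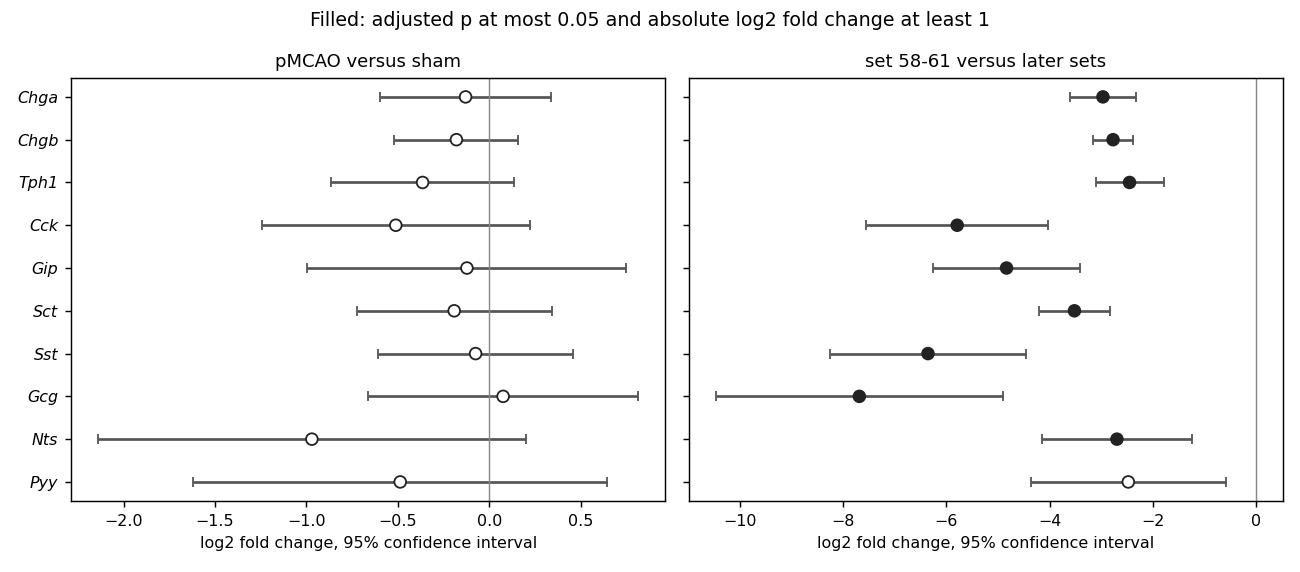
Fitted log2 fold change of each gene with its 95% confidence interval for pMCAO against sham (left) and for libraries 58 to 61 against the mean of sets 62 to 65 and 66 to 68 (right), with filled points past the threshold. All 10 intervals on the left include 0, and 9 of 10 points on the right are filled, of which that of Gcg rests on 0 counts in the 4 early libraries and is not a bound.

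To see whether the hormones fell together, each gene's log2 level was taken relative to Chga in the same library, and libraries 58 to 61 were compared with the 8 later ones by an exact two-sided permutation test over libraries (495 arrangements), with adjustment over 8 genes. Relative to Chga, Sst moved by -3.67 log2 units, from -0.72 ± 0.70 to -4.39 ± 2.00 (p = 0.00202, the smallest it can give, adjusted p = 0.0162 by this permutation test). Cck moved by -3.14 (adjusted permutation p = 0.0269) and Gip by -1.97 (adjusted permutation p = 0.0283). Tph1 was higher relative to Chga, by 0.50 (adjusted permutation p = 0.0242). The ratios of Chgb, Sct, Nts and Pyy to Chga differed by 0.20, -0.56, 0.49 and 0.62 log2 units, and none of these passed the test. Without library 58, Sst at -2.76 and Tph1 at 0.55 still passed, each with an adjusted permutation p of 0.0485, while Cck at -2.22 (0.0808) and Gip at -1.09 (0.0848) did not. That test had 165 arrangements, and the smallest p it can give is 0.00606, which Sst reached. Cck and Gip kept their direction, with unadjusted permutation p of 0.0303 and 0.0424. Sst thus fell further than Chga with and without library 58. The reference was Chga alone and not the endocrine cells as a whole. Over the 8 later libraries the Pearson r of log2 CPM with Chga was 0.81 for Tph1, 0.39 for Cck, 0.25 for Gip and -0.03 for Sst. Whether Cck and Gip differ from Sst in their fall relative to Chga was not tested, since each gene was compared with Chga only. The same ratios did not differ between pMCAO and sham within library sets, where the lowest adjusted permutation p over 72 label arrangements was 0.5.

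**Figure D3:**
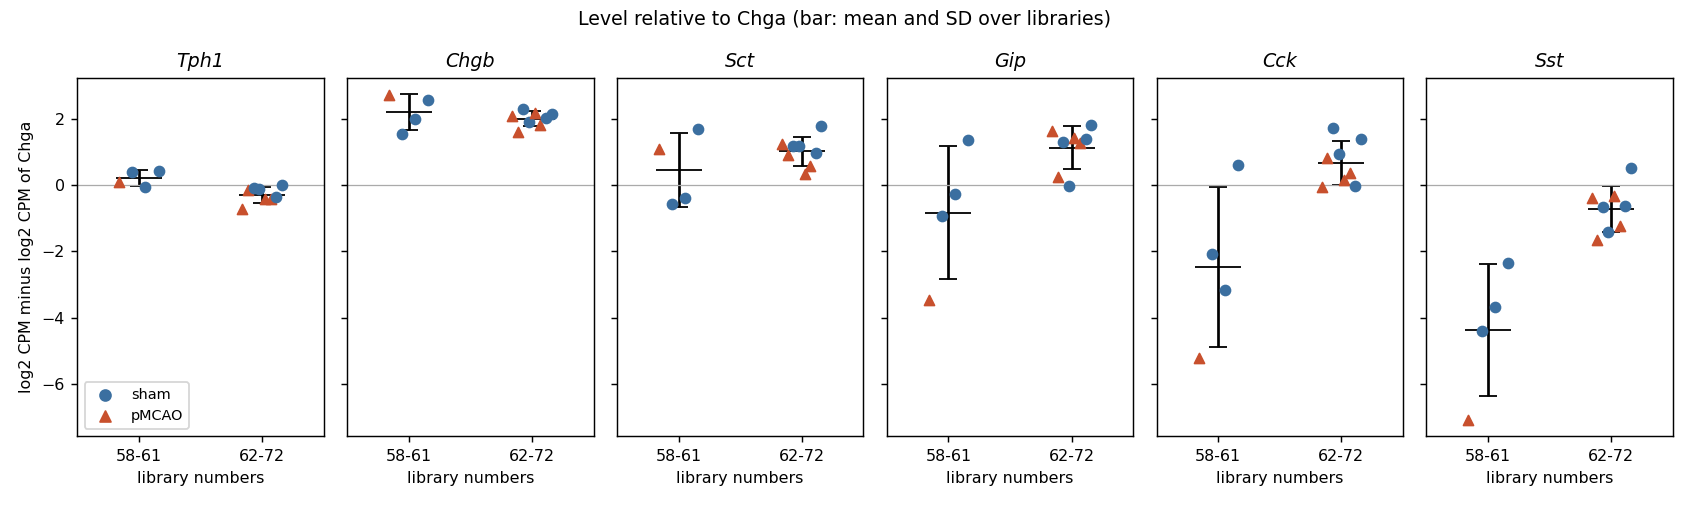
Log2 CPM of 6 genes minus that of Chga in the same library, for libraries 58 to 61 and 62 to 72, with circles for sham, triangles for pMCAO, and bars for the mean and SD. Sst moves from -0.72 in the later libraries to -4.39 in the early ones, and Tph1 from -0.28 to 0.22.

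Library 58, the single pMCAO library of its set, departed from its 3 sham neighbours in some hormones and not in others. It held 5 counts of Cck, 1 of Sst and 18 of Gip, but 204 of Chga. Against the 3 sham libraries pooled, Cck was 32.6-fold lower (95% counting interval 13.8 to 101), Gip 21.2-fold lower (13.3 to 36.0) and Chga 2.18-fold lower (1.87 to 2.55). For Sst the ratio was 32.1, with a counting interval from 5.54 to 1288. Nts made up 40.2% of its summed member CPM. These intervals cover counting error only, and a comparison with 1 pMCAO library has no replicate check.

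Within the later sets the same hormones did not repeat this difference. The pMCAO minus sham difference of mean log2 CPM was -4.69 for Cck in libraries 58 to 61, -0.78 in 62 to 65 and 0.10 in 66 to 68. It was -4.53, 0.47 and -0.25 for Gip, and -4.63, 0.19 and -0.33 for Sst. Chga gave -1.02, 0.17 and -0.20. Chgb and Tph1 were the members with one sign in all 3 sets, which makes 2 of 10, beside 30.3% of all genes. Chgb gave -0.32, -0.09 and -0.24, and Tph1 gave -1.19, -0.17 and -0.28.

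Nts was the member whose group difference depended on the library set. The pMCAO minus sham difference was 2.03 log2 units in libraries 58 to 61, -0.62 in 62 to 65 and -3.25 in 66 to 68, and the group-by-set interaction passed in limma-voom (F = 25.9, adjusted p = 0.0232), as it did for 0.152% of all genes. The early difference came from 1 pMCAO library at 142 CPM, and the last from 1 sham library, replicate 6, at 836 CPM against 70.3 and 109 CPM. With edgeR's quasi-likelihood test the adjusted p was 0.256, and it exceeded 0.05 on leaving out any one of 7 of the 12 libraries. Pyy gave 1.61, 0.05 and -1.74 in the same order, with an interaction p of 0.0591 before and 0.476 after adjustment in limma. The remaining 8 members had adjusted p of 0.519 or more.

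Genes that mark the ileum were read in the same libraries, and of the 5 on the list Slc10a2 and Fabp6, the transporter and the binding protein of ileal bile acid uptake, are given here after their values were seen. Slc10a2 was at 13.7 CPM in pMCAO replicate 1 against 0.415 to 2.39 CPM in its 3 sham neighbours, and at 4.48 and 2.11 CPM in pMCAO replicates 4 and 5 against 10.9 CPM in sham replicate 6. Fabp6 was at 41.5 CPM in pMCAO replicate 1 against 8.45 to 22.2 CPM, and at 14.5 and 9.09 CPM against 92.1 CPM. In libraries 62 to 65 the pMCAO minus sham difference of log2 CPM was 0.32 for Slc10a2 and 0.72 for Fabp6, where that of Nts was -0.62. For the other markers of the list the differences in the same order of sets were 1.32, 0.43 and -0.35 for Slc51a, 1.98, 0.0070 and 0.17 for Slc51b, and 0.54, 0.62 and 0.56 for Clec2h. Summed over all 5 ileal markers, pMCAO replicate 1 was at 1087 CPM against 468 to 862 CPM, but pMCAO replicates 4 and 5 were at 1140.0 and 1109 CPM against 905 CPM in sham replicate 6. The part of gut region in the Nts and Pyy values was not tested.

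**Figure D4:**
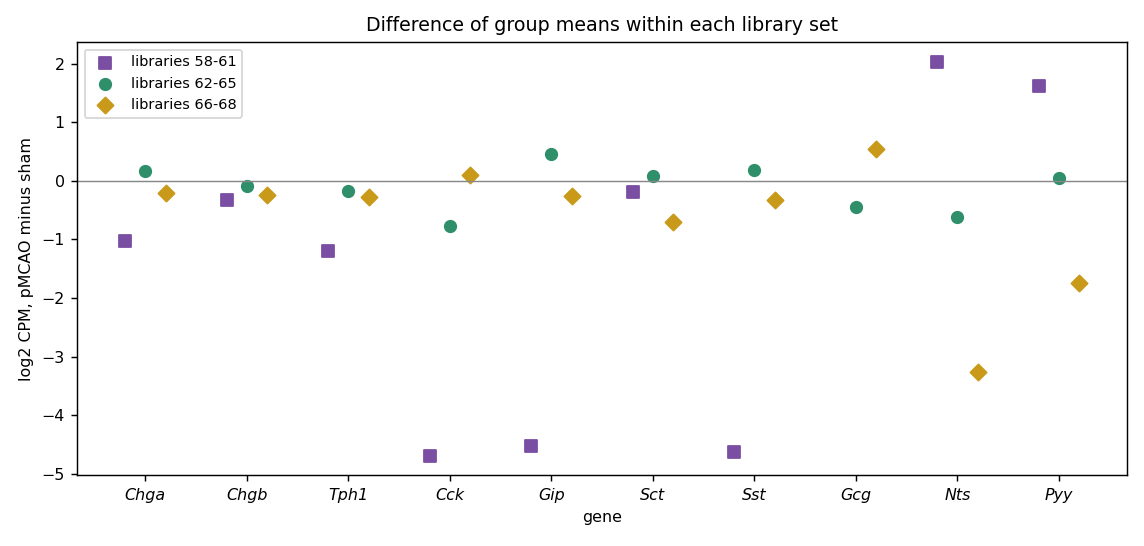
Difference of mean log2 CPM, pMCAO minus sham, for each gene within libraries 58 to 61 (squares), 62 to 65 (circles) and 66 to 68 (diamonds), with Gcg left out of the first set because it had no counts there. Nts runs from 2.03 to -3.25 across the sets, and Cck, Gip and Sst depart from 0 by more than 4 log2 units in the first set.

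Other genes of the endocrine programme were counted in the same fits, from lists chosen by function. In pMCAO against sham, 0 of the 78 genes tested in these lists were called by limma-voom, edgeR or DESeq2, and 6 had an unadjusted p under 0.05. Of 10 tested genes for granins and prohormone processing the median log2 fold change was -0.37, and Pam, which amidates peptide hormones, was at -0.52 ± 0.19 (unadjusted p = 0.0126, adjusted p = 0.245 in limma). Of 15 granule exocytosis genes the median was -0.09, and Unc13a, a vesicle-priming factor, was at -0.98 ± 0.33 (adjusted p = 0.211). The 18 transcription factors had a median of -0.03, the 12 nutrient sensors 0.26, the 9 genes of serotonin and tetrahydrobiopterin handling 0.02 and the 4 other peptide hormones 0.18. The 4 hormone receptors had a median of 0.40 and the 6 hormone-cleaving peptidases one of 0.30, where Enpep and Mme, both membrane peptidases of the brush border, were each at 0.44 ± 0.14 with adjusted p of 0.187 and 0.193.

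Between the library sets, 51 of the 78 genes tested in these lists were lower in libraries 58 to 61 and 1 was higher. Of the genes for granins and prohormone processing 8 of 10 were lower in libraries 58 to 61, with a median log2 fold change of -3.19. Scg2, secretogranin II, was at 3.70 ± 3.22 against 70.0 ± 17.4 CPM later, Pcsk1, the prohormone convertase, at 10.4 ± 1.93 against 46.5 ± 7.52 CPM, and Cpe, the carboxypeptidase that trims prohormones, at 9.43 ± 2.11 against 43.9 ± 9.13 CPM. Scg3 and Pcsk1n were also among the 5 with the smallest adjusted p. Of the exocytosis genes 12 of 15 were lower (median -2.83), led by Slc18a1, the monoamine transporter of enterochromaffin granules, at 7.30 ± 2.65 against 35.0 ± 3.5 CPM, and by Syt7, Unc13a, Stxbp5l and Snap25.

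Of the transcription factors 12 of 18 were lower (median -3.55). Neurod1, which drives endocrine differentiation, was at 6.63 ± 1.95 against 53.7 ± 10.7 CPM (log2 fold change -3.23 ± 0.39, adjusted p = 0.000152), and St18, Myt1 and Insm1 were lower too. All 4 tested peptide hormones outside the 10, Ghrl, Iapp, Ucn3 and Tac1, were lower, and Ghrl, ghrelin, was at 8.52 ± 11.8 against 123 ± 46.0 CPM. Of the sensors 8 of 12 were lower (median -3.69, or -3.77 with Ffar4, which had no early count, at its floor), including the fatty acid receptors Ffar1 and Ffar2, Galr1, Trpa1 and Abcc8. The hormone receptors Glp1r and Sstr1 were the 2 of 4 called lower, with a list median of -3.50, or -3.42 with Sstr3 at its floor.

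In serotonin and tetrahydrobiopterin handling 4 of 9 were lower (Ddc, Maob, Pcbd1 and Qdpr) and 1 was higher, with a median of -1.02. The higher one was Gch1, the first enzyme of tetrahydrobiopterin synthesis, at 79.0 ± 18.0 against 34.5 ± 9.82 CPM (log2 fold change 1.21 ± 0.22, adjusted p = 0.00177). Of the peptidases 1 of 6 was lower, Anpep, with a median of -0.30.

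Markers of other cell types moved with the library sets as well. All 7 goblet cell markers were lower in libraries 58 to 61 (median -2.21), and all 6 tested tuft cell markers (median -5.24), whose summed level was 19.3 to 46.6 CPM against 202 to 929 CPM later. Stem cell markers were lower in 3 of 5 (median -3.07), Paneth cell markers in 1 of 5 and immune markers in 2 of 6. Of 8 enterocyte markers 1 was lower and 0 higher, with a median of 0.75 and a summed level of 21694 to 53867 CPM against 15284 to 26091 CPM. Of the 5 proximal and the 5 ileal markers 0 were called by limma-voom in this contrast, and 0 had an unadjusted p under 0.05. In pMCAO against sham 0 of the 49 genes tested over all marker lists were called by limma-voom. An unadjusted p under 0.05 was reached there by 16 of the 49, beside 12.7% of all genes. These included 5 of 7 goblet cell markers, 3 of 5 proximal and 2 of 5 ileal markers. Of stromal and endothelial markers and of enteric neuron and glia markers, 1 of 8 and 1 of 10 were among the genes of the table, and of pancreas markers 0 of 10. The neuronal one, Prph, peripherin, was called higher in libraries 58 to 61 at 6.31 ± 0.789 against 1.44 ± 0.900 CPM (adjusted p = 0.00763 in limma), and the endothelial one, Pecam1, was not called. The part of cell composition and of RNA quality in the hormone levels of libraries 58 to 61 was not tested.

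**Figure D5:**
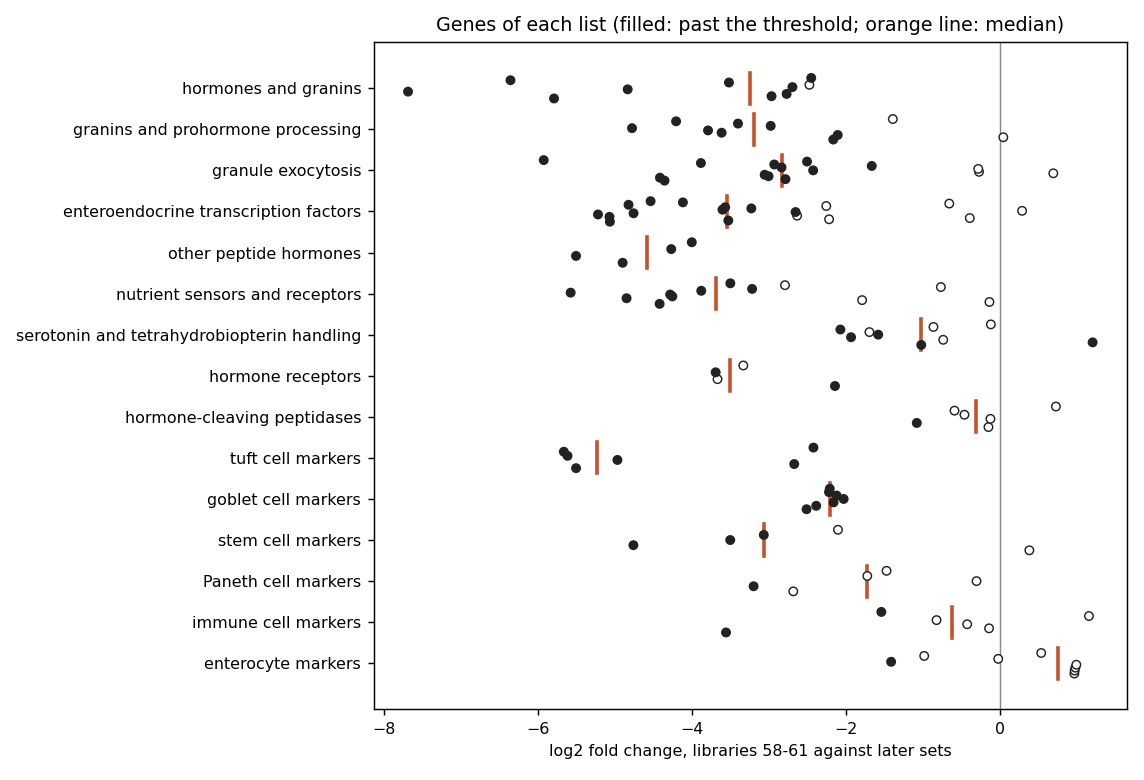
Fitted log2 fold change of libraries 58 to 61 against the later sets for the tested genes of each list, with filled points past the threshold and an orange line at the list's median. The medians of the hormones and granins (-3.24), the processing genes (-3.19) and the transcription factors (-3.55) lie between those of tuft cell markers (-5.24) and goblet cell markers (-2.21), near that of stem cell markers (-3.07), and that of enterocyte markers is 0.75. Genes with no early count are drawn at their fitted value.

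Within the 8 libraries after 61, Tph1 and Chgb followed Chga most closely among the members. As a description over 8 libraries that share 1 scaling, the Pearson r of log2 CPM with Chga was 0.81 for Tph1, 0.74 for Chgb, 0.65 for Sct, 0.39 for Cck, 0.25 for Gip, 0.23 for Gcg, 0.17 for Pyy, 0.15 for Nts and -0.03 for Sst. The median was 0.01 over all genes with a mean of at least 10 CPM in these libraries, members included. Spearman's rho was 0.79 for Tph1, 0.40 for Chgb and 0.21 for Sct. Among 6259 ranked genes outside the members, the 5 with the highest r were Mt1 (0.91), Ptprn (0.90), Scaf8 (0.88), Herpud1 (0.84) and Kansl1 (0.84). Of these, Ptprn, a dense-core granule membrane protein, was also on the exocytosis list.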

How the data were processed

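RNA from sorted small-intestinal epithelial cells of 7 sham and 5 pMCAO mice was compared. Per the labels and the paper's methods, the authors removed ribosomal RNA by cleavage, sequenced from both ends, used STAR for alignment to GRCm38 and counted per gene with featureCounts; whether strand was used is not given in the sources used here. The deposited counts were whole numbers per gene, with every gene reaching 0.5 CPM in at least 4 samples, so rare transcripts were not analysed here. The deposited CPM values were those counts scaled to each sample's total and were not used. The deposited log2 fold changes and average log2 expression, and the deposited p-value and FDR columns, hold the authors' own limma comparison and were not used. No sample column was left unmatched (0).

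Genes were kept by filterByExpr with a minimum count of 10, leaving 14462 of 15855. Counts were tested with limma-voom and TMM factors (limma 3.58.1, edgeR 4.0.16, R 4.3.3), with group and library set in 1 model fitted over all 12 samples and Benjamini-Hochberg adjustment over all genes. The study's methods corrected for collection day, which the labels do not give, and the library sets, which follow the numbers in the titles, stood in for it. The contrast of libraries 58 to 61 used sets 62 to 65 and 66 to 68 and left out library 72. The group-by-set interaction had 5 residual degrees of freedom. Values are mean ± SD over libraries, or ± SE for log2 fold changes. Ratios to Chga were tested by exact permutation and were added after the data had been examined, as were the alternatives of the interaction.

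The members, lists and library sets were chosen with earlier results of these data known. Named genes were the 10 members, up to 5 called genes per list by smallest adjusted p (where none was called, the 2 with the smallest unadjusted p), and the 5 genes most correlated with Chga; the genes of a list that passed are also named where few. One gene that this rule names is not reported here. Of the table's gene identifiers 15776 of 15855 were found in GENCODE vM21, and promoter windows came from RefSeq. The limma fit was tested on simulated data. Alternatives were DESeq2 1.42.0, edgeR, other size factors, no filter, quality weights, other set codings, a replicate block and leaving out samples. The p-values measure the spread between samples, each labelled a biological replicate.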

Additional observations from a re-analysis of the deposited data

Results flagged for a closer look

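pMCAO replicate 1, library 58, lay far from the other 4 pMCAO libraries in 6 of the 10 members by Dixon's test on log2 CPM. Its values were 4.13 for Chga, 6.86 for Chgb, -1.09 for Cck, -4.55 for Gcg, 0.66 for Gip and -2.96 for Sst. For Gcg it had no count, and the value is set by the offset of 0.5 counts. It is the only pMCAO library of set 58 to 61, whose sham libraries were also low in these genes. With 20 groups tested, about 1 in 20 would be reached by chance.

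The pMCAO minus sham difference of Nts differed between the library sets in limma-voom (interaction F = 25.9). It was 2.03, -0.62 and -3.25 log2 units in libraries 58 to 61, 62 to 65 and 66 to 68. The first and the last each rest on a single library of 1 group.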

How the results depend on the processing

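The count of 0 members and 0 genes of the endocrine programme lists called for pMCAO against sham held in all 22 alternatives. The count over all genes moved from 47 to 21 with edgeR, 115 with DESeq2, 29 with quality weights, 16 with a 2-level library set, 0 without a library-set term (1219 at an unadjusted p under 0.05) and 0 without libraries 58 to 61 (1421). Leaving out 1 sample gave 4 (without sham replicate 6) to 86 (without pMCAO replicate 3). With the replicate block in place of the library set it was 243. The numbers did not pair the samples, since same-numbered deviations correlated at 0.40, -0.22, -0.13, 0.16 and 0.073.

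The sign of the members' log2 fold changes for pMCAO turned in 33 of 220 alternative values, none of them called. With the replicate block Chga was 0.85, Chgb 0.90, Tph1 0.41, Cck 0.94, Gip 1.62, Sct 1.02, Sst 1.33, Nts 0.48 and Pyy 0.65. Group and library set cannot be told apart in these block values. Without a set term Chga was 0.32, Chgb 0.43, Sct 0.36 and Pyy 0.16. Without libraries 58 to 61 Chga was 0.031 and Gip 0.19. Pyy was 0.18 with edgeR and 0.20 with DESeq2, and Gcg -0.051 with quality weights. Leaving out 1 sample, Chga ran from -0.29 to 0.026, Gcg from -0.40 to 0.45, Gip from -0.44 to 0.19, Sct from -0.33 to 0.050, Sst from -0.38 to 0.11, Nts from -1.64 to 0.26 and Pyy from -1.21 to 0.34. The causes were not tested.

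For libraries 58 to 61 against later sets, 8 (without sham replicate 1) to 10 members were called on leaving out 1 sample and 9 or 10 otherwise, and over all genes 730 (without pMCAO replicate 1) to 2201 (without sham replicate 5). The interaction count of 1 member became 0 with edgeR, without libraries 58 to 61 and without libraries 66 to 68, 2 without libraries 62 to 65, and 0 to 2 on leaving out 1 sample. Sst rested on 1 count and Gcg on 0 in library 58, so the exact level of each there is uncertain.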
